A study of Caenorhabditis elegans with 2 samples.

Results

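The 409 regions described here are chromatin immunoprecipitation peaks on chromosome X of Caenorhabditis elegans that lie away from tRNA genes. They were taken from the deposited list of peaks that passed a test of reproducibility between replicates (irreproducible discovery rate, IDR), in which 486 peaks were on X. A peak was kept if its summit, the position of highest signal, lay more than 100 bp from every annotated tRNA gene, and this left out 77 of the 486. The same filter left 1703 peaks on the 5 autosomes, which are the background throughout, so the X peaks are 409 of 2112.

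The study mapped where the protein K12H6.12 was found on chromatin. Whole young adult worms of mixed sex, aged 72 hours, were synchronised by starving hatched larvae after bleaching. They were of strain OP214, with the mutant allele unc-119(ed3) on chromosome III and the transgene wgIs214, which gives K12H6.12 a C-terminal GFP-FLAG tag. Sonicated chromatin was precipitated with an antibody against GFP. There was 1 group with 2 biological replicates, numbered 2 and 3, and both carried the mutation and the tag. The control alignment that the authors called peaks against was not used here, so whether a given peak marks K12H6.12 itself was not tested. The whole animal was sampled, and a peak does not say in which cells it arose.

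Peaks carry a signal value, the authors' own score with no stated scale. It serves below to rank and describe peaks of the same list, and values of replicate 2 and replicate 3 come from each replicate's own list. The lists hold no read totals, so depth is unknown. Intervals in brackets are 95% intervals, and they cover no more than the error of counting peaks or genes.

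Chromosome X of C. elegans is present in a pair in hermaphrodites and singly in males. In hermaphrodites a condensin-like dosage compensation complex binds both X chromosomes and lowers their transcription. It is first recruited at scattered X-linked sites that carry a sequence motif named MEX, for motif enriched on X, and then spreads along the chromosome. X is also known for holding few genes that are active in the germline.

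Sequences are shown here because the core of that motif was more frequent under X peaks than under autosomal ones. The MEX core, CGCAGGG, was 1 of 6 words searched, listed for its known link to X and not read from the peaks. Shares of the words were planned as a description, and the difference for the core was not a planned result. It was looked for on both strands in the 100 bp on each side of each summit. It occurred in 22 of the 409 X peaks. The lines below give 27 bases around every core at the 8 strongest X peaks that carry it, read on the strand of the core, with the core in capitals. Each is named by the coding gene whose 5' end was nearest. All sequences are from the RefSeq genome of assembly WBcel235, which is ce11.
cest-16, chrX:6296539-6296565, plus strand: ttacatttggCGCAGGGggtcaccata
cest-16, chrX:6296567-6296593, plus strand: ataggtatcgCGCAGGGaagatttacc
W02H3.3, chrX:11094115-11094141, minus strand: ttttatatcgCGCAGGGagcttatgca
W02H3.3, chrX:11094216-11094242, minus strand: gaaccattcgCGCAGGGacacctcact
nspc-17, chrX:14525890-14525916, minus strand: ttgcctatcgCGCAGGGacagatgtgg
F20B6.9, chrX:4209256-4209282, minus strand: gccgctatcgCGCAGGGacacctcttt
Y41G9A.17, chrX:2997113-2997139, minus strand: aaatttatcgCGCAGGGaggaagtagc
xol-1, chrX:8036391-8036417, minus strand: ttttttatcgCGCAGGGacgtatgtcg
xol-1, chrX:8036426-8036452, plus strand: ttttccatcgCGCAGGGaacccttcga
gtr-1, chrX:806665-806691, plus strand: gcgattatcgCGCAGGGgtgtttgttg
gtr-1, chrX:806741-806767, plus strand: aaccgatacgCGCAGGGaaaaaaaaat
F22H10.2, chrX:16682162-16682188, minus strand: gaaaacatcgCGCAGGGaacatcaaat

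In these lines the letters beside the core are alike: TCG stands right before it in each, except the first of cest-16 and the second of gtr-1. The next lines give the core at the other X promoter peaks that carry it, and there TCG precedes it at ins-39 alone. The peak of ins-39 lay in the promoter of an insulin-like peptide gene. That of nhr-48 lay in the promoter of a nuclear hormone receptor gene, and that of his-24 in the promoter of a linker histone gene. The R04E5.9 summit lay in promoters of genes on both strands, 11 bp downstream of the 5' end of R04E5.9.
ins-39, chrX:1345047-1345073, plus strand: atgtcattcgCGCAGGGcagctgagcc
nhr-48, chrX:15707628-15707654, minus strand: caccacacacCGCAGGGggaccccccc
his-24, chrX:14490032-14490058, plus strand: gatgtgtcccCGCAGGGtggtagaaat
R04E5.9, chrX:8811095-8811121, minus strand: acacgcgacgCGCAGGGagagggacgc

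Whole summit windows show the setting. The first below is the strongest X peak, upstream of epn-1, which has no core word. The second is the strongest distal intergenic X peak, in sequence 3977 bp from the 5' end of W02H3.3. The third lies 4818 bp upstream of xol-1, the gene that sets the sexual fate of the embryo in response to the number of X chromosomes. Its summit is 190 bp from a tRNA gene, and its peak interval, 8036244 to 8036891, reaches that gene. All are on the plus strand, with core words, which here may read CCCTGCG, in capitals.
epn-1, chrX:14818892-14819092: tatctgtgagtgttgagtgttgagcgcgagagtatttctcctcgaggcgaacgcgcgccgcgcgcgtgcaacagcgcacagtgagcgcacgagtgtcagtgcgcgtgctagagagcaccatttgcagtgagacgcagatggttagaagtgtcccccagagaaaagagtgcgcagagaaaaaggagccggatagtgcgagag
W02H3.3, chrX:11094109-11094309: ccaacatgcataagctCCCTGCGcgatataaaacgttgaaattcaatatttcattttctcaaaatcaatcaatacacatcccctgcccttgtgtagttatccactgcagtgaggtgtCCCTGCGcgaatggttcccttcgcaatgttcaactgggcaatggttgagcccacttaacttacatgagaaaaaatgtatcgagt
xol-1, chrX:8036395-8036595: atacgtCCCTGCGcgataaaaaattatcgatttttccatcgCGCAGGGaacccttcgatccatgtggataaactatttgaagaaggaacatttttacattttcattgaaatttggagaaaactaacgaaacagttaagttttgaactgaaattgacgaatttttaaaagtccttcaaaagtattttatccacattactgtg

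The core word was more frequent under X peaks than under autosomal peaks. It was in 22 of 409 X windows, or 5.38% (3.58 to 8.01), and in 24 of 1703 autosomal windows, or 1.41% (0.949 to 2.09). The difference was 3.97 percentage points, with an interval (Newcombe) of 2.05 to 6.64. The word itself was about as common on X as on the autosomes: 16.99 per Mb on X and 16.1 per Mb on the autosomes. In windows of the same width stepped along each chromosome it was in 0.302% on X and 0.303% on the autosomes. In windows of that width upstream of coding genes it was in 0.476% on X and 0.348% on the autosomes. Of the 301 core words on X, 26 lay under an X peak, or 8.64%. Whether the dosage compensation complex was bound at these places was not measured here, and a match to the word is a description of sequence only.

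X peaks with the core had a higher median signal than the other X peaks, a description for which no test was run. The median was 324 with the core and 150 without it, and on the autosomes the medians were 147 with the core and 147 without it. Each replicate gave the same order on X. In replicate 2 the medians were 170 with the core and 87.9 without it, and in replicate 3 they were 146 and 68.8. Among the 25 strongest peaks of each set the core was in 5 on X and in 1 on the autosomes, and among the 100 strongest in 14 on X and in 2 on the autosomes. The weakest X peak with the core, near unc-10, had a signal of 99.4, so the word was not limited to strong peaks. Most of the strongest X peaks, such as those at epn-1, C30E1.4, tmem-184 and aak-2, did not hold it.

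Most X peaks with the core lay outside promoters. There were 12 in distal intergenic sequence, 5 in coding promoters and 3 in introns, and the core was in 10.7% of distal intergenic X peaks and 2.79% of promoter X peaks. Of the 24 autosomal peaks with the core, 14 were in coding promoters and 4 were distal intergenic. The nearest core of an X peak lay at a median of 23 bp and at most 77 bp from the summit. The search reached only 100 bp on each side, which bounds these distances, and they were not compared with any other set. At equal rank, 19 of the 22 were found in both replicates, where the share was 67.0% over all X peaks and 66.3% over all peaks with the tRNA filter, and no difference was tested.

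The commonest letters beside the core also differed between X and the autosomes. Over the 26 core sites under X peaks, the commonest letters were T, C and G at the positions before the core, at 57.7%, 61.5% and 69.2%, and A and G after it, at 61.5% and 42.3%. Over the 24 autosomal sites the commonest letters at the same positions were A, G and C, each at 37.5%, and T and A after the core, at 37.5% and 50%. The word spelled by the X letters, TCGCGCAGGGAG, was read from the same X sites. Counts of it, or of its first 10 letters, at these sites and their lack elsewhere are therefore no separate evidence. Those 10 letters, TCGCGCAGGG, were at 12 of the 26 X sites, in 10 X peaks, and at 0 of the 24 autosomal sites. In the whole genome that 10-letter word occurred 19 times on X and 6 times on the autosomes, so 12 of its 19 places on X were under these peaks.

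The replicates were then read separately, using each replicate's full list in place of the IDR list. Among the 500 strongest peaks of replicate 2, the core was in 13 of 105 X peaks, or 12.4% (7.38 to 20.04), and in 6 of 383 autosomal peaks, or 1.57% (0.720 to 3.38). Among the 500 strongest of replicate 3 it was in 14 of 110 X peaks, or 12.7% (7.73 to 20.2), and in 6 of 366 autosomal peaks, or 1.64% (0.753 to 3.53). Over the next 500 ranks the shares in replicate 2 were 4.04% (1.58 to 9.93) on X and 0.798% (0.272 to 2.32) on the autosomes. In replicate 3 they were 2.74% (0.755 to 9.45) on X and 0.781% (0.266 to 2.27) on the autosomes. The intervals of X and the autosomes overlapped at these ranks in both replicates. Beyond rank 10000 the shares were 0.364% on X and 0.509% on the autosomes in replicate 2, and 0.489% on X and 0.517% on the autosomes in replicate 3. There X was no higher than the autosomes in either replicate.

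**Figure D1:**
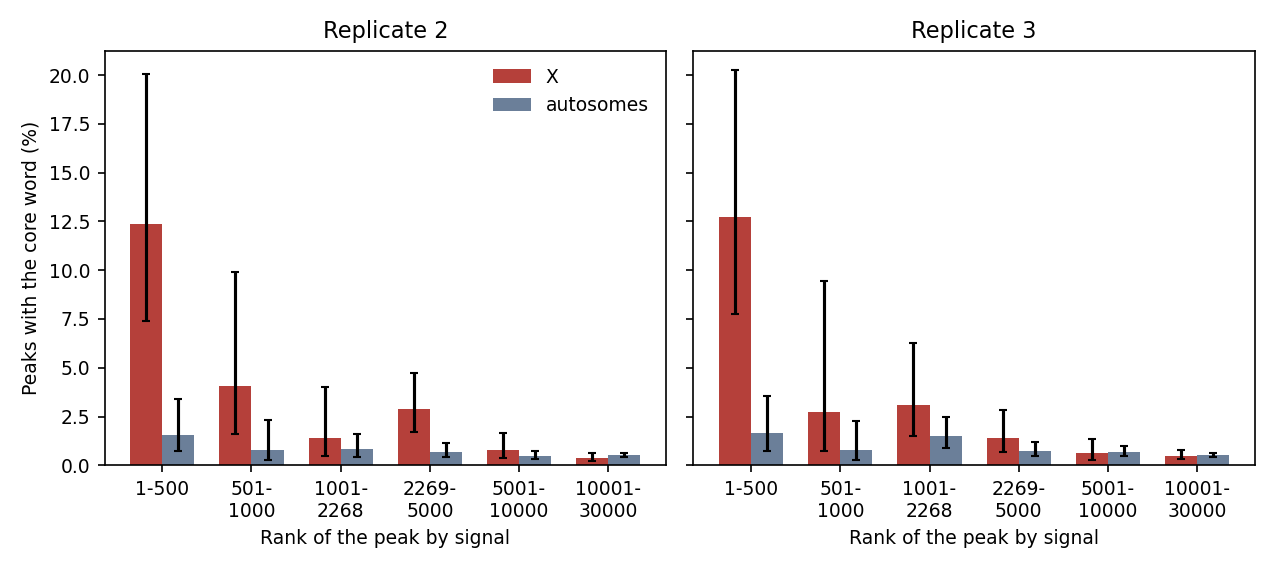
Share of peaks whose summit window, 100 bp on each side, holds CGCAGGG on either strand (vertical axis, %), by rank of the peak in each replicate's own list (horizontal axis). Red bars are X peaks and blue bars autosomal peaks, both more than 100 bp from tRNA genes, and the lines are 95% Wilson intervals. The red bars stand at 12.4% and 12.7% in the first 500 ranks and come down to the blue ones at low rank.

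Other short words did not separate X peaks from autosomal peaks in the same way. The E-box CACGTG was in 8.80% of X windows and 8.57% of autosomal windows, above the 3.41% and 4.36% of upstream windows on X and on the autosomes. The word GAGAGA was in 44.7% of X windows and 46.9% of autosomal windows, against 16.95% and 16.2% of upstream windows, so it was frequent under peaks of both sets. The GATA word TGATAA was in 5.87% of X windows and 7.52% of autosomal windows, below its 21.5% and 22.96% in upstream windows. The differences between X and autosomal peaks for these 3 words had intervals that include 0. Runs of AAAAAA were in 36.4% of X windows and 49.1% of autosomal windows, a difference of -12.7 points (-17.8 to -7.33). The GC box GGGCGG was in 9.54% of X windows and 13.2% of autosomal windows, a difference of -3.62 points (-6.62 to -0.0428). X windows had a median GC content of 47.8%, against 45.3% in autosomal windows. Its part in these shares was not tested.

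X held more peaks than its share of coding genes, and slightly more than its share of length. After the tRNA filter 19.4% of peaks were on X, which has 13.7% of coding genes, a ratio of 1.42 (1.29 to 1.54; two-sided exact binomial p = 4.28e-13, adjusted over 2 tests 8.57e-13). X makes up 17.7% of the length of the 6 nuclear chromosomes, a ratio of 1.10 (1.002 to 1.195; two-sided exact binomial p = 0.0428, adjusted 0.0428). The density was 23.1 peaks per Mb on X and 20.6 on the autosomes together, where it ran from 15.5 on chromosome V to 26.9 on chromosome III, so X lay within the range of single autosomes. Per 1000 coding genes there were 149.8 peaks on X and 98.8 on the autosomes together, from 65.1 on chromosome V to 140.5 on chromosome III, so III was close to X by this measure. Coding genes were sparser on X, at 154 per Mb against 209 on the autosomes. Peaks are not independent of each other, and the excess per length was no longer called when summits within 200 bp were counted once (1.08, exact binomial p = 0.107) or when the tRNA distance was set at 500 bp (1.09, exact binomial p = 0.0555) or 1000 bp (1.09, exact binomial p = 0.0629).

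The share of X was higher among the 500 strongest peaks than among the 10000 strongest, which include them. Among the 500 strongest peaks the ratio to length was 1.22 (1.02 to 1.44) in replicate 2, 1.31 (1.10 to 1.54) in replicate 3 and 1.28 (1.08 to 1.51) in the pooled list. Among the 10000 strongest it was 1.03 (0.990 to 1.08) in replicate 2, 1.09 (1.05 to 1.14) in replicate 3 and 1.06 (1.01 to 1.10) in the pooled list. The lists are nested and their intervals overlap, and the change with rank was not tested.

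**Figure D2:**
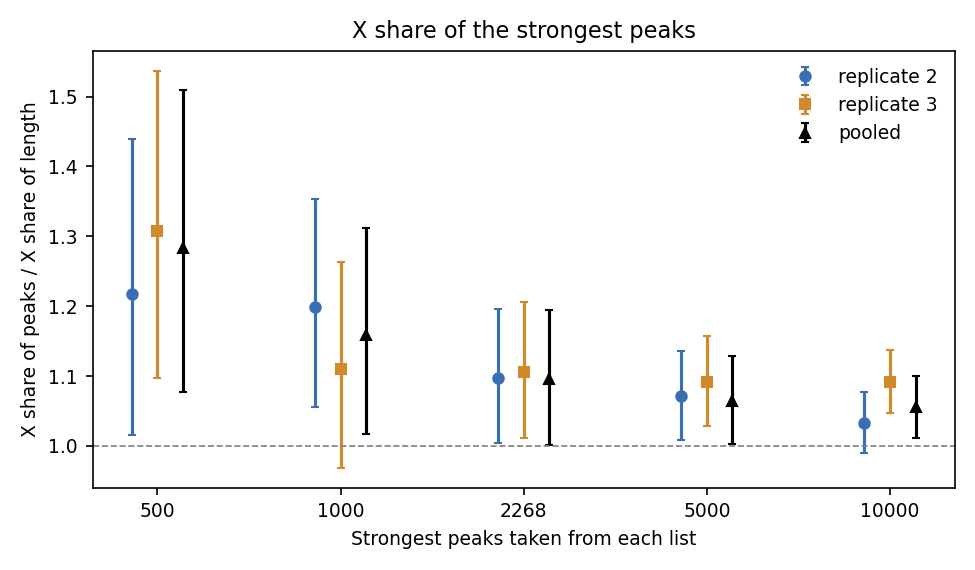
Share of X among the strongest peaks divided by the share of X in length (vertical axis), for the 500 to 10000 strongest peaks (horizontal axis) of replicate 2, replicate 3 and the pooled list, with the tRNA filter and exact 95% intervals. The dashed line is a ratio of 1. The points are highest at 500 peaks, at 1.22, 1.31 and 1.28, and lie between 1.03 and 1.09 at 10000 peaks.

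The X peaks differed most from autosomal peaks in how few lay in promoters of genes on both strands. Each summit was given 1 class. A promoter reached from 1000 bp upstream to 200 bp downstream of a coding gene's 5' end, and it was called divergent if the summit was in promoters of genes on both strands. Divergent promoters held 11 X peaks, or 2.69%, and 304 autosomal peaks, or 17.9%, a difference of -15.2 points (-17.4 to -12.5). Divergent promoter sequence is itself scarcer on X, at 0.666% of positions against 2.39% on the autosomes. Among promoter peaks alone, 11 of 179 were divergent on X, or 6.15% (3.47 to 10.7), and 304 of 917 on the autosomes, or 33.2% (30.2 to 36.3), while divergent positions made up 3.77% of promoter positions on X and 10.7% on the autosomes.

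The 11 divergent X peaks included the promoters of trap-2 and ile-2, with a signal of 392 and with 203 in replicate 2 and 186 in replicate 3. The gene trap-2 encodes a subunit of the translocon-associated complex of the endoplasmic reticulum. The next were R04E5.9 with cnnm-2, at a signal of 282, and snrp-40.1 with F08G12.3, at 248. The weakest, in the promoters of csb-1 and F53H4.4, had 114. Divergent X peaks were not weak: their median signal was 185, against 152 for divergent autosomal peaks.

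Promoters of any kind held 179 X peaks, or 43.8%, and 917 autosomal peaks, or 53.8%, a difference of -10.1 points (-15.4 to -4.69). It was -5.43 points (-10.7 to -0.0266) without replicate 2, in the strongest peaks of replicate 3, and -6.93 points (-14.3 to 0.505) among IDR peaks of above-median signal, where the interval includes 0. Relative to the positions they cover, promoters were about equally enriched, at 2.47 times on X and 2.42 times on the autosomes. Promoters in a single direction held 168 X peaks, or 41.1%, and 613 autosomal peaks, or 35.995%, and the interval of the difference, -0.123 to 10.4 points, includes 0. Their median signal was 165 on X and 145 on the autosomes. Distal intergenic sequence held 27.4% of X peaks and 19.8% of autosomal peaks, a difference of 7.54 points (3.00 to 12.4), and it also makes up 29.2% of positions on X and 19.98% on the autosomes. Introns held 91 X peaks, or 22.2%, and 339 autosomal peaks, or 19.9%, with a difference of 2.34 points (-1.90 to 6.996). Non-coding RNA genes outside promoters and coding genes held 21 X peaks, or 5.13%, and 52 autosomal peaks, or 3.05%. Coding exons held 4 X peaks, or 0.978%, although they are 17.2% of X positions, and 3' UTRs and pseudogenes held 1 each. No X peak lay in a 5' UTR outside the promoter window, which allows a share of up to 0.733%, and 21 autosomal peaks did.

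**Figure D3:**
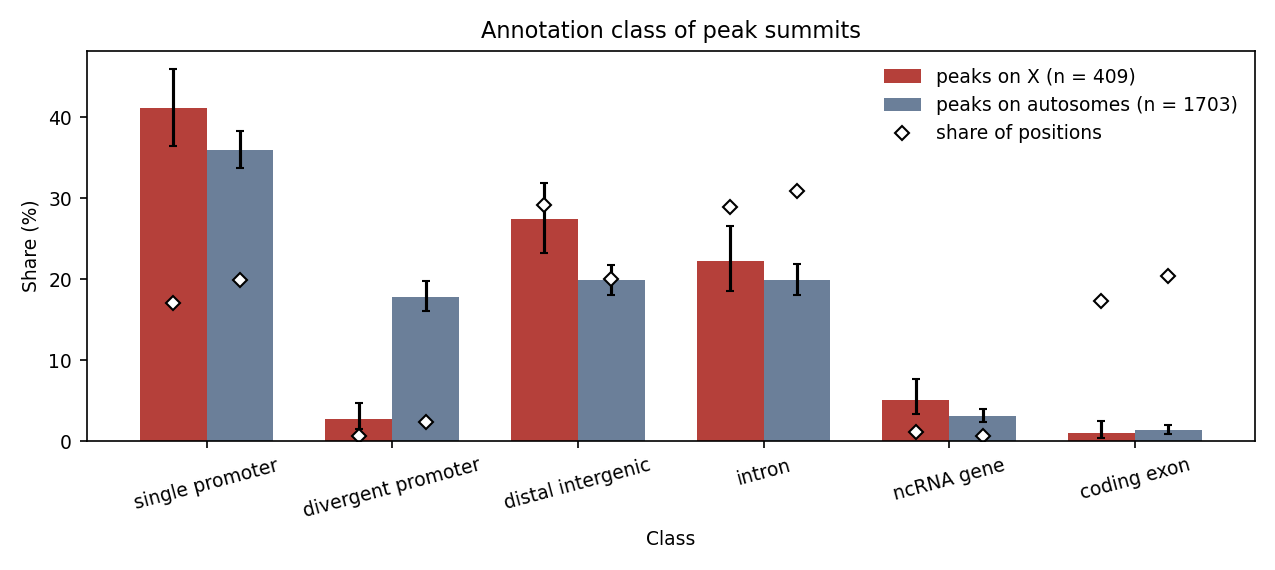
Share of peak summits in each annotation class (vertical axis, %) for X (red) and autosomal peaks (blue), with 95% Wilson intervals, for the 6 commonest classes. White diamonds show the share of all positions of X or of the autosomes in that class. The red bar for divergent promoters stands at 2.69%, beside 17.9% for the blue one.

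X peaks near a gene lay mostly just upstream of it. The nearest coding 5' end was within 1000 bp for 189 X peaks, of which 168, or 88.9%, were upstream, and for 990 autosomal peaks, of which 821, or 82.9%, were upstream. The median distance upstream was 293.5 bp on X and 231 bp on the autosomes. Many X peaks were far from any coding start: 154, or 37.7%, lay more than 2000 bp away, against 469, or 27.5%, on the autosomes. The median distance over all peaks was 1167 bp on X and 649 bp on the autosomes.

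The strongest X peaks lay upstream of genes of many kinds. The epn-1 peak, 478 bp upstream of the gene for epsin, an adaptor of endocytosis, had a signal of 634, with 347 in replicate 2 and 290 in replicate 3. The serp-1.1 peak, 293 bp upstream, had 629, with 286 in replicate 2 and 325 in replicate 3. The puf-9 peak, 283 bp upstream of a gene for an RNA-binding protein of the PUF family, had 614, with 326 in replicate 2 and 274 in replicate 3. These 3 were strong in both replicates, and replicate 2 was the higher at epn-1 and puf-9 but not at serp-1.1.

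The 25 strongest also held peaks at genes of translation and protein folding, grouped here by known role after the values were seen. The eef-1A.2 peak, 399 bp upstream of a gene for a translation elongation factor, had a signal of 477, with 268 in replicate 2 and 226 in replicate 3. The hsp-3 peak, 43 bp upstream of a gene for an Hsp70 chaperone of the endoplasmic reticulum, had 474, with 258 in replicate 2 and 221 in replicate 3. The atf-6 peak, 269 bp upstream of a transcription factor gene of the unfolded protein response, had 402, with 191 in replicate 2 and 206 in replicate 3. All 3 summits were within single-direction promoters.

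Others lay at signalling and regulatory genes. The ftt-2 peak, 540 bp upstream of a gene for a 14-3-3 protein, had a signal of 550, with 430 in replicate 2 and 143 in replicate 3. The aak-2 peak, in an intron of the gene for a catalytic subunit of AMP-activated kinase, had 461, with 272 in replicate 2 and 200.5 in replicate 3. The ain-1 peak, 886 bp upstream of a gene of microRNA-mediated silencing, had 409, with 284 in replicate 2 and 133 in replicate 3. At ftt-2 and ain-1 replicate 2 was well above replicate 3. An intronic peak of ldb-1, whose product binds LIM-domain proteins, had 409, with 238 in replicate 2 and 181 in replicate 3. The sms-2 peak, upstream of a sphingomyelin synthase gene, had 424, with 208 in replicate 2 and 207 in replicate 3.

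Of the 25 strongest X peaks, 13 were in promoters, 7 in distal intergenic sequence, 4 in introns and 1 in a non-coding RNA gene. The peak nearest to cest-16, with 576, lay in an intron of mom-1 and was the strongest outside promoters. The distal peaks nearest to W02H3.3 and C30E1.4 had 542 and 511, and those nearest to tmem-184, F20B6.9, ZK899.6, K02D3.1 and fbxb-58 had 468, 466, 425, 423 and 403. Y41G9A.17 had an intronic peak of 436. The other promoter peaks were at nspc-17 with 482, sto-4 with 450, pqn-39 with 418 and F46H5.2 with 399. All 25 were within rank 500 of both replicates, with worst ranks of 178 in replicate 2 and 426 in replicate 3. X supplied 28 of the 100 strongest IDR peaks and 110 of the 500 strongest.

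Over all X peaks the signal was much like that of autosomal peaks. The median was 152 (quartiles 114.9 and 223, range 97.9 to 634) on X and 147 (quartiles 115.98 and 200.6, range 98.01 to 1112) on the autosomes. In replicate 2 the medians were 90.1 on X and 83.3 on the autosomes, and in replicate 3 they were 69.5 on X and 68.01 on the autosomes. The ratios of medians were 1.03, 1.08 and 1.02, and the strongest peaks of all were autosomal.

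Recovery in the replicates at equal rank did not differ beyond counting error. At that rank, taking from each replicate as many of its strongest peaks as the IDR list holds, 274 X summits were covered in both, or 67.0% (62.3 to 71.4), against 1127 autosomal summits, or 66.2%. The difference was 0.815 points (-4.37 to 5.75), and over X and the autosomes together the share was 66.3%. Replicate 2 alone covered 339 X summits and replicate 3 alone 332. In the full lists 406 of the 409 X summits were covered in both, or 99.3%, against 1660 of 1703 autosomal summits, or 97.5%, a difference of 1.79 points (0.249 to 2.78). Among IDR peaks of above-median signal, at equal rank, the difference was 4.46 points (0.795 to 7.05). The 3 X summits missing from replicate 3 lay in introns of aak-2 and lin-14 and upstream of K02A6.3. The list was chosen by the authors for reproducibility, so high recovery follows in part from its construction.

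Across X peaks covered in both, Spearman's rank correlation of the replicate signals was 0.642 (n = 406 peaks), against 0.541 on the autosomes (n = 1660 peaks). These points share libraries and were selected on both replicates, and some share a replicate entry. Replicate 2 was higher than replicate 3 by a median ratio of 1.19 on X and 1.197 on the autosomes, and 30 X peaks, or 7.39%, and 155 autosomal peaks, or 9.34%, departed from it by more than 2-fold.

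**Figure D4:**
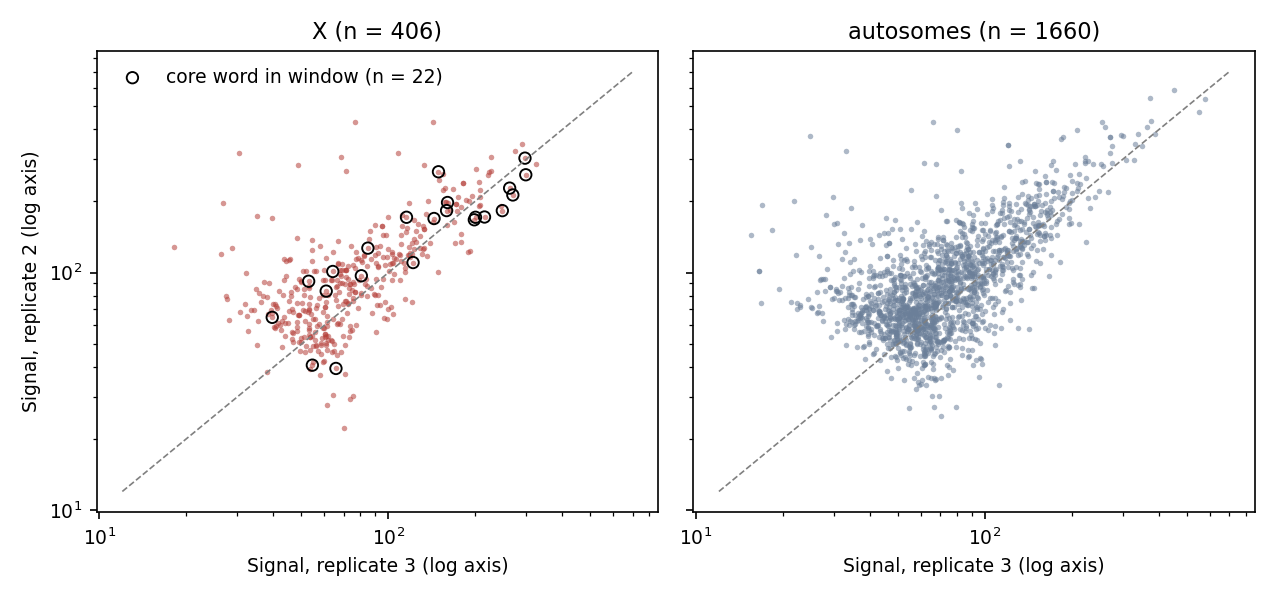
Signal in replicate 2 (vertical, log axis) against signal in replicate 3 (horizontal, log axis) for X peaks (left, red, n = 406) and autosomal peaks (right, blue, n = 1660) covered in both full lists. The dashed line marks equal values and open circles mark the 22 X peaks with the core word. Most points lie above the line, with a median ratio of 1.19 on X, and the circles reach the upper end of the X cloud.

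The most unequal X peaks were of different kinds at either end. The highest ratios of replicate 2 to replicate 3 were at nfki-1 (10.5), sma-9 (7.39), tmem-184 (7.07), ain-1 (5.84) and ftt-2 (5.63). Except for tmem-184, with 128 in replicate 2 and 18.1 in replicate 3, these are second summits under a replicate 2 peak that also covers a stronger X peak, so their replicate 2 value is not their own. Replicate 2 had 34 X peaks that share an entry in this way, and replicate 3 had 16. The lowest ratios were at mob-2 (0.316), C53B7.6 (0.402), nhr-3 (0.404), fox-1 (0.454) and tag-294 (0.475). These 5 were weak peaks, with pooled signals between 97.9 and 111, and each had an entry of its own in both replicates.

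X peaks were spread along the whole chromosome and denser toward its right end. In 10 equal bins from left to right there were 31, 35, 44, 37, 45, 27, 41, 45, 57 and 47 peaks. Per 100 coding genes the lowest rate was 10.2, in bin 6, and the highest was 23.6, in the last bin at the right end, against 12.6 in the leftmost bin. Of 3 equal parts of X, the right one held 157 peaks, or 38.4% (33.8 to 43.2), and 32.4% of X coding genes. The middle one held 130, or 31.8% (27.5 to 36.4), and 35.7% of X coding genes. On the autosomes the middle of 3 equal parts held between 39.2% of peaks, on chromosome IV, and 47.4%, on chromosome V. Every one of the 5 autosomes thus had a larger share of peaks in its middle part than X. The autosomal middle parts held from 35.98% of coding genes, on chromosome II, to 40.6%, on chromosome IV. On chromosome IV the share of peaks was below that of coding genes, and on the other autosomes it was above.

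**Figure D5:**
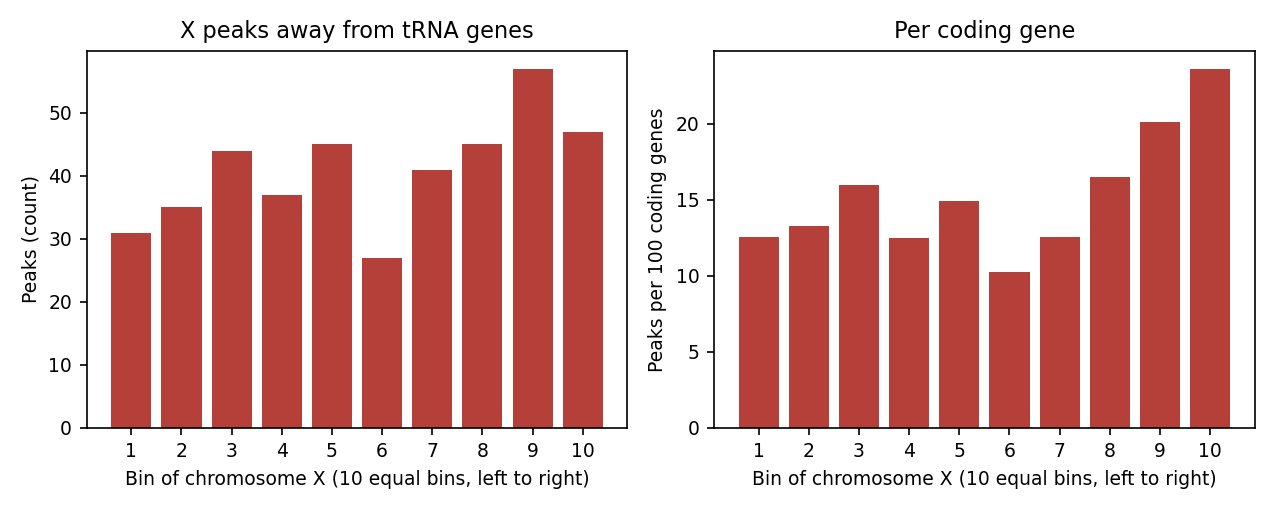
Number of X peaks (left) and X peaks per 100 coding genes (right) in each of 10 equal bins of chromosome X, numbered from the left end to the right end. The count was highest in bin 9, with 57, and the rate per coding gene in bin 10, with 23.6.

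The median gap between neighbouring X peaks was 24612 bp, and the longest, 414215 bp, ran from 3191664 to 3605879. In 32 places neighbours were under 1000 bp apart, and counting summits within 200 bp once left 395 places. The densest 100 kb held 10 peaks, and 4 stretches reached that number. In the first, 6 of the 10 were in introns of ZK470.2, where ZK470.4 has the nearest 5' end, followed by peaks nearest to nck-1, vha-12, F20B6.9 and W01H2.2, of which F20B6.9 was strongest at 466. The second ran from syd-9 through F46H5.3, F46H5.2 and unc-10 to sur-5, with F46H5.2 highest at 399. The third held kin-20, Y15E3A.5, nfki-1, C33A11.2 and svh-5, with the peak near nfki-1 highest at 414. The fourth held C36E6.2, mlc-2, tps-1, nhr-1 and hlh-29, with a distal peak near tps-1 highest at 332. The medians of these stretches were 146, 146, 160 and 152, close to the 152 of all X peaks.

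Several long genes held repeated peaks. The 91 intronic X peaks lay in 58 genes with a median length of 9673.5 bp, against 2548 bp for all X coding genes, and 11 of these genes held at least 3. ZK470.2 held 6. The gene lin-14, a regulator of developmental timing in larvae, held 5 in introns and another 113 bp upstream. Its intronic peaks had signals between 109 and 255. The gene daf-12, for a nuclear hormone receptor that controls entry into the dauer stage, held 4, with signals between 111 and 192. These hosts were picked by their number of peaks after the values were seen. The 409 peaks had 326 nearest coding genes, of which 275 were nearest to a single peak and 20 to at least 3, led by ZK470.4 and lin-14 with 6 each and by mdl-1 with 5. Intervals were shared between neighbouring entries for 12 X peaks, so some of these counts hold more than 1 summit of a broad peak.

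Non-coding RNA genes were under 53 X summits, or 13.0%, when promoters were not set apart, against 185, or 10.9%, on the autosomes. Of these X summits, 52 lay in unclassified non-coding RNA genes and 1 in a long intergenic RNA gene. The epn-1 summit lay in T04C10.8 and T04C10.9 and the puf-9 summit in W06B11.7 and W06B11.9, so these peaks cannot be assigned to the coding gene rather than the non-coding one by position. Outside promoters and coding genes the strongest was the peak near nfki-1, with 414.

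About as large a share of coding genes had a peak in the promoter on X as elsewhere. On X it was 179 of 2731 genes, or 6.55% (5.69 to 7.54), and on the autosomes 1206 of 17242, or 6.99% (6.62 to 7.38), with 6.93% over all chromosomes. The difference was -0.440 points (-1.39 to 0.618). Groups of genes defined by name patterns are described next by their counts alone.

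Some genes of energy metabolism and of protein synthesis had promoter peaks on X and on the autosomes, but few such genes are X-linked. Of the 6 X-linked genes for the respiratory chain and ATP synthase, 5 had a peak, against 12 of 48 on the autosomes. They were sdha-1 of complex II with a signal of 193, ucr-2.1 and ucr-2.2 of complex III with 176 and 165, and the ATP synthase genes asg-2 and asb-2 with 163 and 140. The gene without one was gas-1, of complex I, whose nearest X peak was 10376 bp away. Of the 2 X-linked ribosomal protein genes, rpl-11.2 had a peak of 312 and rpl-25.1 had none, against 46 of 76 on the autosomes. Of 5 X-linked chaperone genes, hsp-3 with 474 and dnj-14 with 185 had a peak, against 23 of 60 on the autosomes.

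Regulatory genes gave mixed counts. Of 27 X-linked nuclear hormone receptor genes 5 had a promoter peak, or 18.5%, against 8 of 247, or 3.24%, on the autosomes. The strongest were nhr-48 with 336, nhr-1 with 224 and nhr-3 with 200. Of 19 X-linked signalling genes 4 had one, against 8 of 78 on the autosomes, led by the salt-inducible kinase gene kin-29 with 393, akt-2 of insulin signalling with 246 and rab-14 with 213. None of the 26 X-linked homeobox genes had one, which allows a share of up to 11.5%, and 3 of 73 did on the autosomes. Of 6 X-linked genes of sex determination and dosage compensation, sdc-2, which brings the dosage compensation complex to X, had a promoter peak of 127, with 53.9 in replicate 2 and 69.5 in replicate 3. The other 5 had none: ceh-39, fox-1, sdc-1, sex-1 and xol-1. Their nearest X peaks lay at distances from 3453 bp, for fox-1, to 69697 bp, for sdc-1. The one of fox-1, with a signal of 97.9, was in an intron of fox-1 itself. On the autosomes 1 of 19 such genes had one.

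Genes of neurons, muscle, cuticle and yolk gave counts from 0 to 3 on X. Of 78 X-linked receptor and channel genes, glr-6, for a glutamate receptor, had a peak of 163, from a summit it shares with asg-2, against 2 of 169 on the autosomes. Of 36 neuropeptide and insulin genes, ins-39 had one of 233, against 0 of 107 on the autosomes. Of 19 synapse and axon genes, syd-2 with 272 and syd-9 with 147 had one, against 15 of 64. Of 17 muscle genes, act-4 with 142, mlc-2 with 109 and tnt-3 with 102 had one, against 9 of 50. None of 30 cuticle collagen genes, 36 chemoreceptor genes and 5 vitellogenin genes on X had one, against 4 of 145, 6 of 1335 and 0 of 2 on the autosomes. Counts of 0 on X allow shares of up to 10%, 8.33% and 60%.

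Counts for non-coding RNA genes other than tRNAs varied by class. Of 74 X-linked microRNA genes 4 had a peak in the same window of their 5' end, against 21 of 187 on the autosomes. Among them mir-54, mir-55 and mir-56 share a peak of 340, with 183 in replicate 2 and 164 in replicate 3, in an intron of F09A5.3. Of 33 snoRNA genes 4 had one, or 12.1%, against 101 of 313, or 32.3%, on the autosomes, led by T27A8.8 with 350. Of 45 long non-coding RNA genes 3 had one, against 16 of 249, and the strongest, linc-78 with 312, shares its peak with rpl-11.2. Of 162 genes for 21U-RNAs 5 had one, or 3.09%, against 152 of 15201, or 1.00%, on the autosomes. Of 2520 unclassified non-coding RNA genes 125 had one, or 4.96%, against 383 of 5244, or 7.30%, on the autosomes.

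Distance to tRNA genes, which set the limit, left few X peaks near it. Just inside the limit and so left out were peaks near sulp-3, rei-2 and F34H10.5, at 93, 80 and 61 bp from a tRNA gene, with signals of 120, 107 and 124. Just outside were those near gpc-1, with a signal of 124, R04A9.1, at 139 bp with 253, and xol-1, at 190 bp with 382. The filter used the summit alone, and the peak intervals near gpc-1 and xol-1 reach the tRNA gene. Only 5 of the 409 lay within 1000 bp of a tRNA gene, and the median distance was 45085 bp.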

How the data were processed

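Peak lists on build ce11, per the labels, were deposited for replicate 2, replicate 3, both pooled, and as an IDR-thresholded list. The authors called each replicate's peaks, and the pooled peaks, against 1 control alignment and derived the IDR list of 2268 peaks from these 3, per the deposited readme texts. No source used here names the caller, the aligner or the IDR threshold. The deposited signal is a score of unstated scaling. The deposited −log10 q-value was read but not used in any comparison. The files held 0 columns of other samples.

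Python 3.11.15 with numpy 2.4.6, pandas 2.3.3, scipy 1.17.1, statsmodels 0.14.6 and matplotlib 3.10.9 was used. Genes came from Ensembl release 115 and sequence from the RefSeq genome, both of assembly WBcel235. Classes were assigned in the order coding promoter, 5' UTR, coding exon, 3' UTR, intron, non-coding RNA gene, pseudogene and distal intergenic, and shares of positions from steps of 500 bp. A summit was covered if a replicate peak lay over it, and the strongest such peak gave its signal. X was compared with the autosomes by 2 exact binomial tests with Benjamini-Hochberg adjustment, by Newcombe intervals of differences without a p, and by Wilson intervals. The limit for a count of 0 is 3 divided by n. The procedures were tested on simulated data in which peaks were drawn independently. That test does not cover the dependence between the peaks here.

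The members and lists were chosen with earlier results of these data known. Named genes are those nearest to the 25 strongest X peaks, the 3 strongest of each class and each list, the 5 highest and 5 lowest replicate ratios, those at the tRNA limit and those of the densest 100 kb. X peaks with the core word are named beyond that rule and were chosen after their values were seen. Alternatives were other tRNA distances, the 1134 strongest IDR peaks, merged summits, each replicate alone, and other promoter windows and overlaps.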

Additional observations from a re-analysis of the deposited data

How the results depend on the processing

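Over 11 results and 92 alternatives, 85 kept the side of the threshold or stayed within the interval as reported, 4 moved and 3 lost the call. The median signal ratio has neither, and was counted as kept if it stayed within 0.0425, the SD of the replicate ratios. No value that was called, or whose interval excluded 0, changed sign. Differences whose interval includes 0 changed sign in 5 cases: the intron share, 2.34 points, was -1.71 without replicate 2; the equal-rank coverage, 0.815, was -0.262 without replicate 3 and -0.828 with an overlap of 50%; and the share of genes with a promoter peak, -0.440, was 0.403 without replicate 2 and 0.212 among IDR peaks of above-median signal. Without replicate 3 the intron difference was 4.30 points (0.00355 to 8.98). With a promoter window of 2000 bp upstream to 500 bp downstream it was 4.79 points (0.627 to 9.37). These intervals exclude 0, unlike the one as reported. The ratio of X peaks to length, 1.10, lost its call at tRNA distances of 500 bp (1.09) and 1000 bp (1.09) and with summits within 200 bp counted once (1.08). The divergent promoter difference became -10.1 points with a window of 500 bp upstream to 100 bp downstream and -17.7 points with 2000 bp upstream to 500 bp downstream. Among the IDR peaks of above-median signal the median signal ratio was 1.08 and the core word difference 7.40 points. The core word difference was not a planned result. The core word alternatives, and non-coding RNA genes set before introns, were chosen after seeing the data. In these cases the cause was not tested. No paired analysis was possible because there was only 1 group, so the replicate numbers pair nothing.

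Depth is unknown, and the score has no stated scale. Without the control, nothing separates sites of K12H6.12 from sites that any such precipitation yields. Neighbouring summits and shared replicate entries make peaks dependent, so intervals and p-values are too narrow. With 2 replicates of 1 group, no spread between conditions can be given.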
